A study of Homo sapiens with 4 samples.

Results

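The 9 genes described here encode a pentraxin (PTX3), a pair of serum amyloid A proteins (SAA1 and SAA2), a lipocalin (LCN2), complement components C3, CFB, C1S and C1R, and the complement regulator CD55. They were taken by symbol from a fixed list, and all 9 were among the 24424 symbols counted. The list was chosen with earlier results of these data known. BEAS-2B is an immortalised line of human bronchial epithelial cells. The cells were untreated (Control), given LPS for 2 hr (LPS), or given 24 hr of wild-type or mutant PDZ peptide and then the same LPS (WT PDZ+LPS, mut PDZ+LPS). The WT PDZ peptide derives from the PDZ domain of the tight junction protein ZO-1, and the mut PDZ peptide is its mutated control. All 4 libraries came from the same line, labelled with a wild-type genotype, and peptide without LPS was not analysed here.

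There were no replicates (1 library a condition), so conditions and libraries cannot be told apart and p-values were not computed. Libraries held 19682929 to 25155647 deposited counts. Normalized counts are read counts divided by a geometric size factor of the library (0.851 to 1.15). Ranges in brackets after a value are exact binomial 95% intervals for counting error, and they leave out any difference between cultures. Genes were called higher or lower when 2 libraries differed 2-fold or more and either one reached 16 normalized counts, and genes whose mean over the 4 libraries reached 16 are termed expressed (13072 genes). Longer transcripts tended to be lower in the mut PDZ+LPS library. Over 12371 expressed genes with a known transcript, which are not replicates, the rank correlation (Spearman's rho) of log2 fold change with length was -0.591 for mut PDZ+LPS/LPS, against 0.064 for WT PDZ+LPS/LPS. Fold changes of mut PDZ+LPS against LPS and WT PDZ+LPS are therefore given also after removal of the trend over length and GC content. Counts and levels of single libraries are uncorrected unless a corrected value is named. In bulk RNA, fewer expressing cells and less RNA per cell cannot be told apart.

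The acute-phase response is the rise of secreted defence proteins during inflammation, made mostly by the liver and locally by epithelia. Pentraxins and serum amyloid A are induced by LPS or by cytokines such as IL-1 and IL-6, and the inducers differ between genes. NF-kB and C/EBP factors take part. PTX3 opsonises microbes, serum amyloid A binds lipids and attracts leukocytes, and LCN2 binds bacterial siderophores to withhold iron. In the complement system, C1R and C1S are the proteases of the C1 complex. C3 is the central component cleaved by all pathways, and CFB forms the alternative pathway convertase with cleaved C3. CD55 speeds the decay of convertases on the cell's own surface.

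The epithelial keratins KRT7, KRT8, KRT17 and KRT18 were abundant in all 4 libraries. All 9 epithelial marker genes had counts, with a summed level of 3196 to 4645 CPM (counts scaled to the library total). The sum was carried by KRT7 (38350 to 48326 counts), KRT8 (14348 to 19031), KRT18 (12657 to 16976) and KRT17 (6045 to 11114). The others were lower, with KRT5 at 1166 to 1408, CDH1 at 308 to 634 and KRT19 at 87 to 216. EPCAM had only 37 to 51 counts and KRT14 only 37 to 42. The 7 hepatocyte markers were at 3 counts or fewer in every library, and APOC3, APOH, CYP3A4 and F9 were at 0. Of the leukocyte markers, PTPRC was at 0, while CD14 (362 to 507 counts), CD68 (304 to 358 counts) and S100A8 (79 to 110 counts) were expressed. The summed level of the 9 leukocyte markers was 34.3 to 44.5 CPM. That of the 8 fibroblast markers was 83.3 to 91.4. COL3A1 and LUM were at 0, while THY1 (1365 to 1726 counts), COL1A1 (331 to 449) and PDGFRB (67 to 129) were detected. That of the 5 endothelial markers was 1.12 to 1.49. The part of other cell types in the results was not tested.

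The promoters of the called members PTX3, LCN2 and CFB are shown because these genes stood at least 2-fold above Control in every LPS-treated library, with that of CD55 as a member near the threshold. Each sequence holds the 250 bases before the RefSeq start of the gene in GRCh38.p14, 5' to 3' on the plus strand (chr3:157436600-157436849, chr9:128149203-128149452, chr6:31945845-31946094 and chr1:207321428-207321677). Capitals mark matches on either strand to the NF-kB consensus, the C/EBP motif TTGCNNAA, the AP-1 motif TGANTCA or the STAT motif TTCNNNGAA.

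PTX3 promoter: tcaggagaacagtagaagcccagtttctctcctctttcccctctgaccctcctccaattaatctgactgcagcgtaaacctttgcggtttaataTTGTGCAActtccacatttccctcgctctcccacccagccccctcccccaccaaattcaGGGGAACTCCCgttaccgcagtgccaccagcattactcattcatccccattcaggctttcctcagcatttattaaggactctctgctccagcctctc
LCN2 promoter: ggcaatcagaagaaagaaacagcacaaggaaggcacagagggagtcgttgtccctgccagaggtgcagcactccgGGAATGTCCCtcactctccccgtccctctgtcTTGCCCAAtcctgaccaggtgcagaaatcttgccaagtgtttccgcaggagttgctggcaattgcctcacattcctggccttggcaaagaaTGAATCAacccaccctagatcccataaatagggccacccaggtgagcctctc
CFB promoter: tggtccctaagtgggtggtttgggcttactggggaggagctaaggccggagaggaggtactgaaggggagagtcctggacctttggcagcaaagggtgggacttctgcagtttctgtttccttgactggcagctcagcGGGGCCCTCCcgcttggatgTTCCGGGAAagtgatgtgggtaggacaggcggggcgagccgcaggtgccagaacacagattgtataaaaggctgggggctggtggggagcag
CD55 promoter: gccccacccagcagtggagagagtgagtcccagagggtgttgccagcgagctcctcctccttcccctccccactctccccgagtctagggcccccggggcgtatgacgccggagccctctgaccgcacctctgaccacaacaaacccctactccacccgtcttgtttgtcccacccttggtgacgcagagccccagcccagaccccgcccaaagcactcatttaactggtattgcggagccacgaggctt

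PTX3 held 2 overlapping NF-kB matches, from -97 to -88 and from -96 to -87 relative to the start, and a C/EBP match from -156 to -149. LCN2 held an NF-kB match from -175 to -166, a C/EBP match from -143 to -136 and an AP-1 match from -52 to -46. In CFB an NF-kB match ran from -112 to -103 and a STAT match from -92 to -84, while none of the 4 motifs matched in the CD55 window. Among 35114 RefSeq promoters of the same length, 9.96% held the NF-kB consensus, 9.05% the C/EBP motif, 6.57% the AP-1 motif and 6.57% the STAT motif. These matches describe letters in a short window and not binding. For C1R, RefSeq gave 2 start sites, and neither window held an NF-kB match. Each window held 1 C/EBP match, and one of them also held a STAT match from -86 to -78. SAA1, SAA2, C3 and C1S had no entry, although SAA2 was also called higher in every LPS-treated library. The printed genes were chosen by their values, and a link between calls and motifs was not tested. The promoters come from a newer genome build than the hg19 build named for the counts, for which no coordinates are given.

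In LPS, PTX3 stood 185-fold above Control, at place 17 of all genes by count, and CFB, LCN2 and SAA2 were also called higher. SAA1, C3, C1S, C1R and CD55 were less than 2-fold above Control. This comparison addressed the response of the airway epithelial line to LPS alone. Of the 9 genes, 4 were called higher in LPS/Control and 0 lower, where 3.46% of the 13277 genes tested were called higher and 1.41% lower. The median log2 fold change was 0.94 over the members and -0.00 over all expressed genes.

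**Figure D1:**
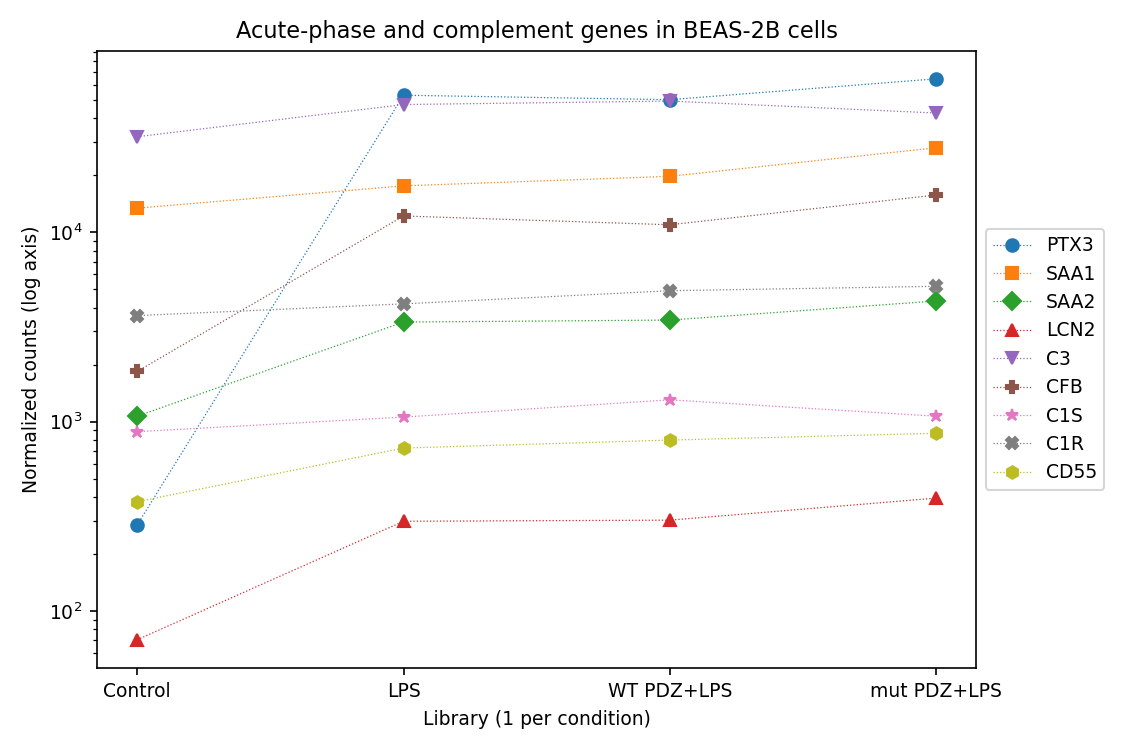
Normalized counts of each gene (log axis) in each condition, 1 point per library, with dotted lines joining the points of a gene. PTX3 moves from 285 to 53023 between Control and LPS, whereas C3 stays between 32009 and 49388 in all 4 libraries.

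PTX3, the long pentraxin, stood at 285 normalized counts in untreated cells, 53023 with LPS alone, 50219 with WT PDZ+LPS and 64747 with mut PDZ+LPS. The 3 LPS-treated libraries were all far above Control. The log2 fold change in LPS/Control was 7.53 (7.38 to 7.70), and only 2 of the 13277 genes had a higher one. In Control, PTX3 held place 9051 by count. It took 0.00132% of all counts in Control and 0.224% in LPS. Its share of the counts of the 9 members went from 0.533% to 37.9%, and the members together went from 0.248% to 0.591% of all counts. Exons of PTX3 overlap those of VEPH1 on the opposite strand in GENCODE 29, and the use of strand in the counting is not given in the sources used here.

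CFB, the protease subunit of the alternative pathway convertase, was measured at 1842 normalized counts without LPS and at 12208 with it, at 10972 with WT PDZ+LPS and at 15763 with mut PDZ+LPS. All 3 LPS-treated libraries were well above Control. Its log2 fold change in LPS/Control was 2.73 (2.66 to 2.80), or 6.62-fold, at place 104 of 13277. Exons of CFB overlap those of C2 and AL645922.1 on the same strand, and C2 had only 7 to 15 counts per library.

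C3 was abundant before LPS and stood 1.48-fold higher after it. Its normalized counts were 32009 before LPS and 47332 after, with 49388 after WT PDZ+LPS and 42703 after mut PDZ+LPS. The log2 fold change in LPS/Control was 0.56 (0.54 to 0.58). C3 made up 59.7% of the counts of the 9 members in Control and 33.9% in LPS.

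LCN2, the siderophore-binding lipocalin, gave 70.5 normalized counts in untreated cells, 298 under LPS alone, 302 under WT PDZ+LPS and 395 under mut PDZ+LPS, again with Control lowest. It had the fewest counts of the 9 in every library, and was called higher in LPS/Control at a log2 fold change of 2.07 (1.72 to 2.45). With 81 counts in Control, its interval was the widest of the 9.

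SAA2 was called higher and SAA1 was not, although the genes are close copies. SAA1 had 13430 normalized counts in untreated cells and 17615 with LPS alone, then 19777 and 28001 with the WT and mut peptides. For SAA2 the corresponding values were 1069, 3360, 3443 and 4342. The log2 fold change in LPS/Control was 1.65 (1.56 to 1.75) for SAA2 and 0.39 (0.36 to 0.42) for SAA1. For each SAA2 read the files held 12.6 SAA1 reads in Control, 5.24 with LPS, 5.74 with WT PDZ+LPS and 6.45 with mut PDZ+LPS. SAA2 made up 7.37% (6.98 to 7.78%) of the summed SAA1 and SAA2 counts in Control, and the intervals of this share in the LPS-treated libraries began at 13.0% or above.

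The most alike protein-coding transcripts of SAA1 (675 nt) and SAA2 (687 nt) in GENCODE 29 were identical at 638 of 662 aligned bases (96.4%). Of the 100-base windows of the SAA1 transcript, the length of 1 sequenced read, 37.2% also occur in that SAA2 transcript, and 36.4% in the other direction. How the counting assigned reads from such stretches is not given in the sources used here, so the separate SAA1 and SAA2 values are uncertain. Summed, SAA1 and SAA2 stood 0.53 (0.50 to 0.56) above Control on the log2 scale after LPS, below the threshold for a call. The neighbouring SAA4 had 26 counts without LPS, 80 with it, and 55 and 102 with the WT and mut peptides, and the read-through symbol SAA2-SAA4, which shares exons with SAA2, had 41, 94, 90 and 149. Both were called higher in LPS/Control.

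The C1 proteases differed least. C1R had 3635 normalized counts in untreated cells, 4192 with LPS alone, and 4919 and 5191 with the WT and mut peptides. C1S had 886, 1058, 1305 and 1069, with Control lowest for both genes. Their log2 fold changes in LPS/Control were 0.21 (0.14 to 0.27) and 0.26 (0.13 to 0.38). C1R overlaps C1RL on the same strand, and 22.5% of the 100-base windows of its transcript occur in C1RL transcripts. Exons of C1S overlap those of EMG1 on the same strand.

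CD55, the decay-accelerating regulator, reached 726 normalized counts with LPS alone, 800 with WT PDZ+LPS and 869 with mut PDZ+LPS, from 378 in untreated cells. Its fold in LPS/Control was 1.92 with an interval of 1.71 to 2.17, which includes the threshold of 2.

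**Figure D2:**
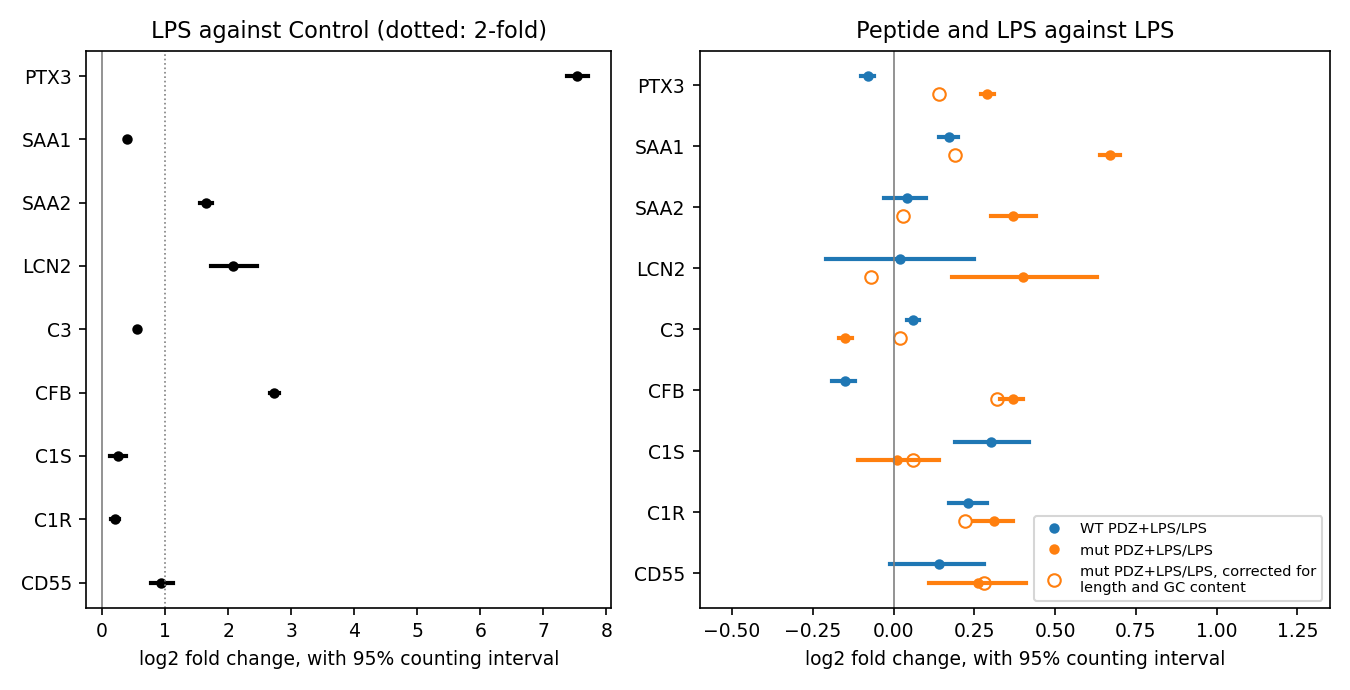
Log2 fold changes with 95% counting intervals (bars) of each gene in LPS/Control (left) and of the peptide libraries against LPS (right), where open circles give mut PDZ+LPS/LPS after the correction for length and GC content. PTX3 stands at 7.53 on the left, and every value on the right lies between -0.15 and 0.67.

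Against Control, the libraries with a peptide gave a similar picture, and they share the Control library with LPS/Control. In WT PDZ+LPS/Control 5 of the 9 genes were called higher and 0 lower, against 3.28% and 1.42% of all genes tested. These were PTX3, CFB, LCN2, SAA2 and CD55, the last at 2.11-fold (1.88 to 2.39), an interval that includes the threshold. Scaling by the total count brought CD55 to 0.95 on the log2 scale, below the threshold. In mut PDZ+LPS/Control 6 were called higher and 0 lower, against 5.13% and 2.96%, with SAA1 added at 2.08-fold (2.04 to 2.13). After the correction the log2 fold change of SAA1 in mut PDZ+LPS/Control was 0.63 in place of 1.06, below the threshold, and under total-count scaling it was 0.96. PTX3 stood 7.45 (7.30 to 7.62) above Control with the WT peptide and 7.82 (7.67 to 7.99) above it with the mut peptide (7.73 after the correction) on the log2 scale, with only 2 genes higher in each comparison.

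With WT PDZ before LPS, the members stood close to their level with LPS alone. This comparison addressed whether the peptide alters the response to LPS. None of the 9 genes was called in WT PDZ+LPS/LPS, where 0.635% of 13236 genes were called higher and 0.733% lower. The median log2 fold change was 0.06 over the members and 0.01 over all genes. CFB had the lowest value, -0.15 (-0.19 to -0.12), and PTX3 followed at -0.08 (-0.10 to -0.06). C1S was at 0.30 (0.19 to 0.42), C1R at 0.23 (0.17 to 0.29), SAA1 at 0.17 (0.14 to 0.20) and C3 at 0.06 (0.04 to 0.08). The differences of LCN2 (-0.21 to 0.25), SAA2 (-0.03 to 0.10) and CD55 (-0.01 to 0.28) were not detectable at this depth. The intervals that exclude 0 belong to differences of at most 1.23-fold, for which no spread between cultures is known.

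With mut PDZ before LPS, none of the 9 genes was called. Uncorrected log2 fold changes were above 0 for 8 genes, C1S at only 0.01, and below 0 for C3. Of the 13072 expressed genes, 6259 were above 0. In mut PDZ+LPS/LPS 2.05% of 13378 genes were called higher and 1.90% lower. SAA1, whose transcript is the shortest at 675 nt, had the highest value among the members, 0.67 (0.64 to 0.70), and C3, the longest at 5263 nt, the lowest, -0.15 (-0.17 to -0.13). After the correction SAA1 was at 0.19 and C3 at 0.02. LCN2 went from 0.40 to -0.07, SAA2 from 0.37 to 0.03 and PTX3 from 0.29 to 0.14. The correction moved CFB from 0.37 to 0.32, C1R from 0.31 to 0.22 and CD55 from 0.26 to 0.28. C1S was at 0.01 (-0.11 to 0.14), not detectable at this depth. The median of the members was 0.31 before and 0.14 after the correction.

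**Figure D3:**
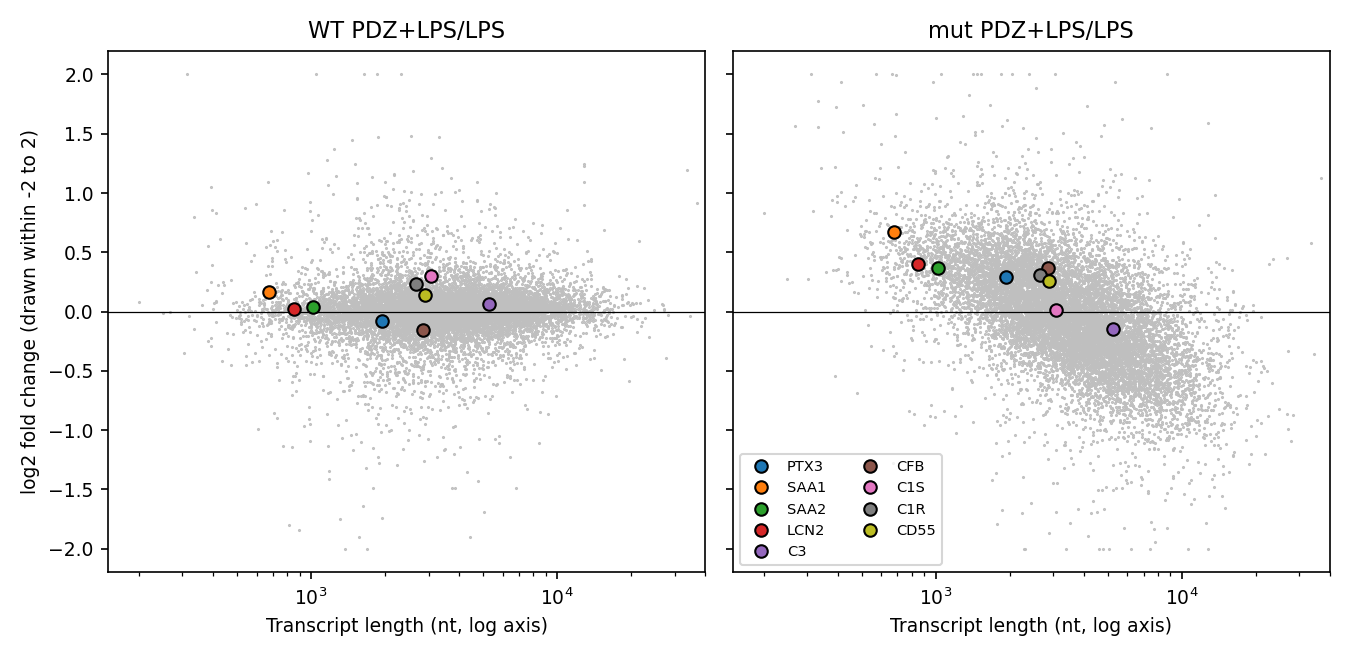
Log2 fold change against transcript length (nt, log axis) for each peptide library against LPS, with each gene as a grey point and the 9 members in colour. In mut PDZ+LPS/LPS the cloud falls with length (rho of -0.591), and the members run from SAA1 at 675 nt and 0.67 to C3 at 5263 nt and -0.15.

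Set against each other, the libraries with the mutant and the wild-type peptide differed most in CFB and SAA1. None of the 9 genes was called in mut PDZ+LPS/WT PDZ+LPS, where 2.12% of 13372 genes were called higher and 2.14% lower. The log2 fold change was 0.52 (0.49 to 0.56) for CFB, 0.50 (0.47 to 0.53) for SAA1, 0.39 (0.16 to 0.62) for LCN2, 0.37 (0.35 to 0.38) for PTX3 and 0.33 (0.27 to 0.40) for SAA2. After the correction these were 0.46, 0.02, -0.12, 0.21 and -0.02. C1S stood at -0.29 (-0.41 to -0.16) and C3 at -0.21 (-0.23 to -0.19), or -0.24 and -0.05 after the correction. C1R was at 0.08 (0.02 to 0.14), or -0.03 corrected, and the difference of CD55 (-0.03 to 0.27) was not detectable at this depth.

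Levels of different genes were compared per kb of the longest protein-coding transcript. In Control the order of normalized counts per kb was SAA1 (19896), C3 (6082), C1R (1367), SAA2 (1046), CFB (644), C1S (288), PTX3 (147), CD55 (131) and LCN2 (83.1). Only PTX3 and CD55 were not apart beyond counting error. In LPS, PTX3 (27332) stood first and SAA1 (26097) next, with LCN2 (352) and C1S (344) not apart. With WT PDZ+LPS, SAA1 preceded PTX3, at 29299 against 25886. With mut PDZ+LPS the deposited counts put SAA1 at 41483 and PTX3 at 33375, but after the correction relative to LPS they were at 29731 and 30014, so that SAA1 no longer stood first. All these orders depend on the transcript lengths used. For SAA2 this was 1022 nt, longer than the 687 nt transcript aligned with SAA1, and the shorter length would raise its level per kb.

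The genes nearest in pattern were those with the smallest distance between the 4 log2 levels after subtraction of each gene's mean. Nearest to PTX3 were CSF2 (distance 0.306) and IL1A (0.442), both cytokines that were almost silent in Control, at 0.870 and 6.09 normalized counts. At so low a level, the distance of CSF2 depends on the pseudocount of 1. For CFB the nearest were IL32 (0.133) and MAFF (0.140), for LCN2 CCDC71L (0.120), and for SAA2 SLC2A6 (0.097) and FLJ22447 (0.126). CLINT1 (0.052) was among the 2 nearest to C3, and SAA1 lay nearest to TMSB4X (0.051) and SPIRE2 (0.059). C1R lay nearest to MAK (0.042) and HAS3 (0.043), C1S to TMEM255B (0.056) and SNAI1 (0.063), and CD55 to SPATA6L (0.093) and STC2 (0.115). Among the members themselves SAA2 and LCN2 were each other's nearest (0.365), as were C3 and C1S (0.230). With 4 libraries these distances describe and do not test a likeness.

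Other genes of the acute-phase and complement systems, together with partners and inducers of the members, comprised 118 symbols, in lists written from general knowledge. Earlier results of these data were known when the lists were chosen. Of these 47 were expressed, among them 13 inducers and 6 partners. In LPS/Control 14 of the 47 were called higher and 1 lower, where 3.46% of all genes tested were higher and 1.41% lower. Of the 14, 6 were inducers and 2 were partners. The median log2 fold change of the 47 was 0.37, against -0.00 over all expressed genes. Among liver acute-phase genes (8 of 18 expressed, median 0.17), the protease inhibitors SERPINA1 (1.90, 1.79 to 2.02) and SERPINA3 (1.92, 1.78 to 2.07) were called higher. So was VNN1, a pantetheinase, with 3 counts in Control and 90 in LPS (4.57, 3.43 to 7.32). FGB, a fibrinogen chain, was called lower, at -1.55 (-2.25 to -0.96), with 91 and 28 counts. CRP, the short pentraxin of the liver response, had only 6 to 16 counts. NPTXR, the other expressed pentraxin gene, was at 0.49 (0.01 to 0.98).

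In the complement lists CFB and C5AR1 were called higher. These lists are short, and with 3.46% of all genes called higher and 1.41% lower, a list with 0 calls is near that background. C5AR1, the receptor for C5a, had 16 counts in Control and 31 in LPS (log2 fold change 1.01, 0.15 to 2.04). Of the classical pathway 5 of 9 genes were expressed, and 0 were called (median 0.21). Those with the highest counts were C1R and C1RL, the latter at 0.09 (-0.02 to 0.20). Of the lectin pathway only MASP2 (1 of 9) and of the terminal pathway only C5 (1 of 7) were expressed, at -0.52 (-1.10 to 0.02) and -0.09 (-0.54 to 0.36). Of the complement regulators 6 of 18 were expressed, and 0 were called (median 0.24). The membrane regulators CD59 and CD46 had 7144 and 3139 normalized counts in LPS and log2 fold changes of 0.37 (0.33 to 0.42) and -0.03 (-0.10 to 0.03). Among complement receptors C1QBP and ITGB2 had the highest counts, at -0.05 (-0.10 to 0.01) and 0.45 (0.20 to 0.70). APOM, which with LCN2 had the highest counts of the lipocalin family, was at 0.04 (-0.95 to 1.02), and RBP4, the only expressed negative acute-phase gene (1 of 6), at 0.34 (-0.42 to 1.13).

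**Figure D4:**
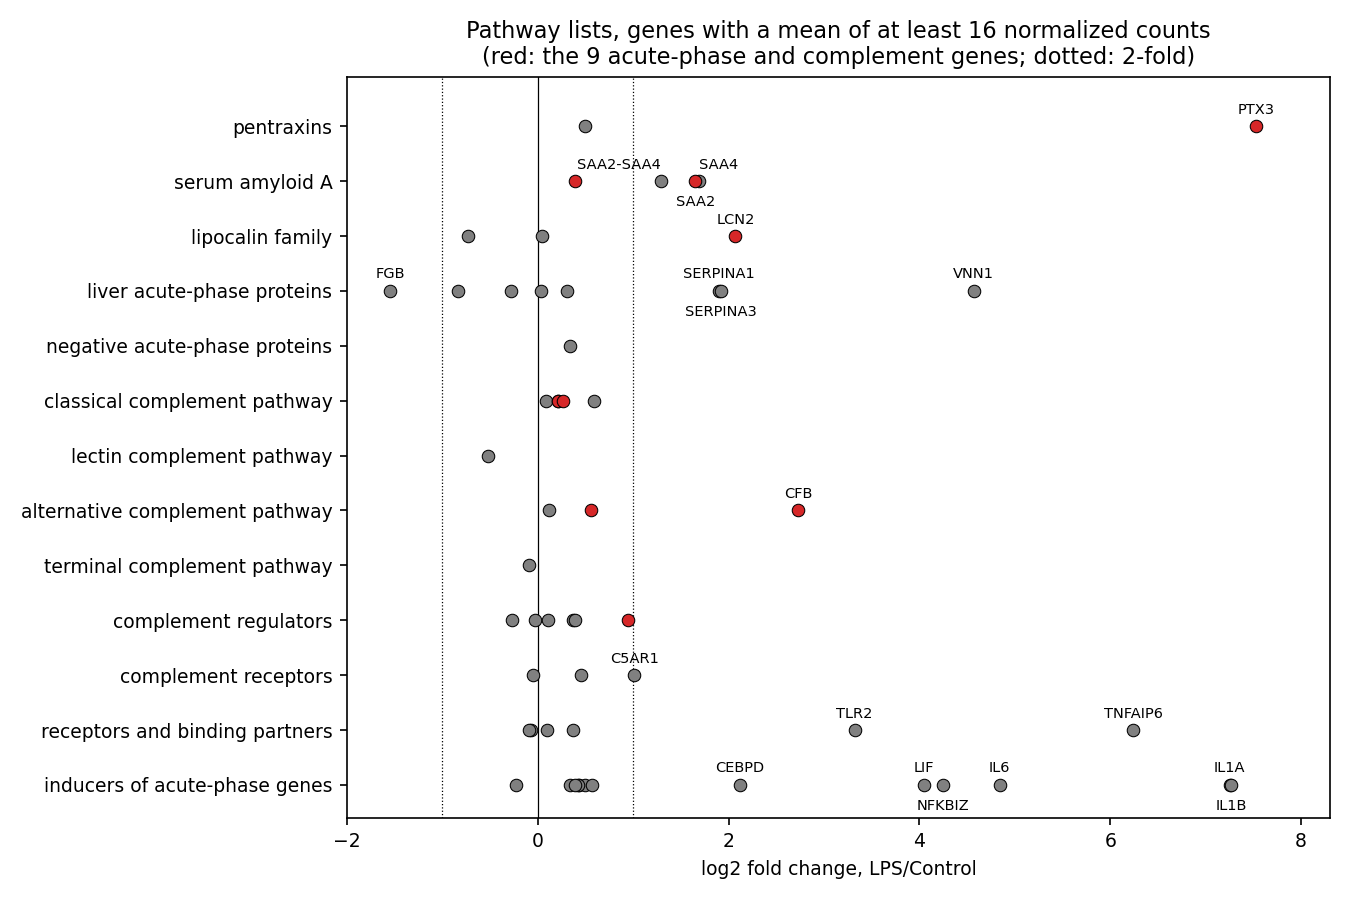
Log2 fold change in LPS/Control of the expressed genes in each pathway list, 1 point per gene, with the 9 members in red and dotted lines at 2-fold. Called genes carry their symbols and include CFB of the alternative pathway and C5AR1 of the complement receptors. The lectin and terminal lists hold 1 expressed gene each.

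Partners and inducers of the members are counted among the 47. In LPS/Control, where 3.46% of all genes tested were called higher and 1.41% lower, 2 of 6 expressed partners were called higher. TNFAIP6, which encodes the PTX3-binding protein TSG-6, had 77.5 normalized counts in Control and 5925 in LPS, a log2 fold change of 6.24 (5.96 to 6.58). TLR2 was at 3.32 (3.14 to 3.53), and the lipoprotein receptor SCARB1 at -0.07 (-0.15 to 0.01). Of 14 inducers, 13 were expressed and 6 were called higher. These were the cytokines IL6 (4.84, 4.70 to 4.99), LIF (4.05, 3.94 to 4.16), IL1A (7.25, 6.42 to 8.78) and IL1B (7.27, 6.18 to 10.02, with 3 counts in Control), and the regulators NFKBIZ (4.25, 4.08 to 4.44) and CEBPD (2.12, 2.05 to 2.20). IL6ST, the shared receptor subunit of the IL-6 family, was among the 2 with the highest counts, at 0.43 (0.40 to 0.46).

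Against LPS, 47 of the 118 other symbols could be tested in each comparison, so that 1 call is near the share of all genes called. In WT PDZ+LPS/LPS the call was CRP, higher with 16 counts against 6 (0.635% of all genes higher, 0.733% lower), and the median of the 47 expressed genes was -0.08. In mut PDZ+LPS/LPS it was FGB, higher with 47 counts against 28 (2.05% of all genes higher, 1.90% lower). Its log2 fold change was 1.04 (0.36 to 1.80), and 0.90 after the correction, below the threshold. The median was 0.12, or -0.01 after the correction. In mut PDZ+LPS/WT PDZ+LPS 2 of 48 tested symbols were called higher and 0 lower (2.12% of all genes higher, 2.14% lower). AGER (122 counts against 64) and SAA4 (102 against 55) were the 2, named after their values were seen, at 1.14 and 1.10. After the correction they stood at 0.70 and 0.65, and neither was past the threshold. The median was 0.19 before and after it.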

How the data were processed

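RNA of BEAS-2B cells was measured in 4 libraries, 1 per condition, grouped by their treatment labels. The authors made poly(A)-selected, directional, paired-end libraries, trimmed adapters and low-quality reads, and mapped them with TopHat. The counts the authors deposited are raw reads on each gene symbol. The submitters' processing notes name hg19 and TopHat. The counting tool, annotation and strand setting are not given in the sources used here. The study's methods name FPKM and geometric normalization, but the deposited counts are whole numbers with different totals and were used as such.

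Size factors were geometric (DESeq2 1.42.0, R 4.3.3), and a pseudocount of 1 was added before log2. The alternatives were scaling by TMM (edgeR 4.0.16), by the upper quartile or by the total, a pseudocount of 5, no expression minimum or one of 64, fold thresholds of 1.5 and 3, summed SAA symbols, and the removal of a lowess trend (span 0.3) over log2 transcript length and then GC content (longest protein-coding transcript in GENCODE 29, 12371 of 13072 genes). The steps were tested on simulated data. Python 3.11.15, scipy 1.17.1, statsmodels 0.14.6 and biopython 1.88 were used.

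The members, lists and alternatives were chosen with earlier results of these data known. Genes named beside the members were those of the lists called in LPS/Control, WT PDZ+LPS/LPS or mut PDZ+LPS/LPS, the 2 most abundant of each list, and the 2 nearest in pattern to each member. A few genes that this rule names are not reported here. Intervals are for counting error alone. The reads carry no molecular identifiers, so they need not be independent molecules.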

Additional observations from a re-analysis of the deposited data

Results flagged for a closer look

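PTX3, CFB and C3 stood on opposite sides of LPS in the libraries of the 2 peptides, each beyond counting error, and this difference was not tested against replicates. Against LPS, PTX3 was at -0.08 with the WT peptide and 0.29 with the mut peptide, with a log2 fold change of 0.37 in mut PDZ+LPS/WT PDZ+LPS. CFB was at -0.15 and 0.37, with 0.52 between the peptide libraries. C3 was at 0.06 and -0.15, with -0.21 between them. With the length and GC trend removed, the values in mut PDZ+LPS/LPS were 0.14 for PTX3, 0.32 for CFB and 0.02 for C3, so that C3 no longer stood below LPS.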

How the results depend on the processing

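The numbers of members called higher or lower stayed within 1.5 times their value under every alternative, except that 1 member was called higher in mut PDZ+LPS/LPS at a fold threshold of 1.5, in place of 0. With the SAA symbols summed, 3 were called higher in LPS/Control in place of 4. These were PTX3, CFB and LCN2, so the call of SAA2 did not carry over to the summed symbol. No called log2 fold change of a member changed sign. No counting interval was computed for the median of the members. Its moves were judged by the interval of the single member nearest to it. By that measure the median moved with the SAA symbols summed, which leaves 8 values. It moved to 0.75 for LPS/Control, 0.88 for WT PDZ+LPS/Control, 0.10 for WT PDZ+LPS/LPS and 0.24 between the peptide libraries. In mut PDZ+LPS/LPS the median was 0.37 under upper-quartile scaling and 0.14 with the length and GC trend removed. Between the peptide libraries it was -0.02 with the trend removed. Removing the trend turned the sign of 5 uncalled values, those of LCN2 and C3 against LPS and of SAA2, LCN2 and C1R between the peptide libraries. SAA1 in mut PDZ+LPS/Control lost its call with the trend removed (0.63) and under total-count scaling (0.96). CD55 in WT PDZ+LPS/Control lost its call under total-count scaling (0.95), which left 4 members called higher in place of 5. The causes of the other moves were not tested. Under total-count scaling all genes had a median of -0.13 in LPS/Control. Differences under 2-fold rest on 1 library a condition, and counts under 100, as for LCN2 in Control, limit precision. No paired analysis was possible because each condition had 1 library.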
